A study of Mus musculus with 12 samples.

Results

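The genes described here are 44 transcripts of myeloid and erythroid cells that were measured in RNA from cultures of naive CD4 T cells. They were chosen by gene symbol, 1 probe set per gene, with earlier results of these arrays in view, so that they serve as a readout of which other blood cells contributed RNA. All 44 were found among the 23410 probe sets of the array that carry a gene symbol, and each had exactly 1 probe set. The cells came from C57BL/6 mice that were either transgenic for PP2Ac or wild type (WT). PP2Ac, the product of Ppp2ca, is the catalytic part of a serine/threonine phosphatase. In both genotypes cells were taken unstimulated (0 h) or after 6 h or 24 h of stimulation in RPMI medium with fetal calf serum. The stimulus was soluble antibody to CD3 (0.25 ug/mL) and to CD28 (0.5 ug/mL) over plate-bound goat antibody to hamster immunoglobulin. Each of the 6 groups had 2 arrays, of which 1 carries the mark Rep in its title and the other, called unmarked here, does not. The labels do not give the promoter that drives the transgene, the age or number of mice, how the T cells were purified, or whether the 2 arrays of a group came from separate mice or cultures. Their spread, and every p-value here, may therefore be technical, and the number of arrays limits the precision. The source label of the WT arrays itself reads "WT transgenic mice", and the group was taken from it and from the titles as WT.

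Granulocytes and monocytes arise from a common progenitor in bone marrow. Developing granulocytes fill their granules in sequence, first the azurophil granules with elastase-like proteases and myeloperoxidase, then the secondary and tertiary granules with lactoferrin, cathelicidin and metalloproteases, and mature cells carry large amounts of the calcium-binding proteins S100A8 and S100A9. Dendritic cells present antigen to T cells, and late erythroid precursors make haem and the proteins of the red cell membrane. None of these programmes belongs to a naive CD4 T cell, and in bulk RNA a smaller number of such cells and less RNA per cell cannot be told apart.

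Promoter sequences show part of what the myeloid and erythroid members share, since transcription of granulocyte genes depends on factors of the C/EBP family and on PU.1, and that of late erythroid genes on GATA-1. RefSeq promoter entries (build GRCm38.p6) existed for 33 of the 44 members, and the 250 bases before the annotated start were searched on both strands for 3 short motifs. The C/EBP motif was TTNNGCAA. The PU.1 motif, which other ETS factors share, was GAGGAA. The motif of GATA factors was AGATAA. The 4 promoters below, from the azurophil granule gene Elane, the secondary granule gene Ltf, the cytosolic neutrophil gene S100a8 and the erythroid gene Alas2, are shown as 1 example of each of these classes of gene, with the matches in capitals and the start of the gene to the right of the last base.
Elane (chr10:79886062-79886311, plus strand): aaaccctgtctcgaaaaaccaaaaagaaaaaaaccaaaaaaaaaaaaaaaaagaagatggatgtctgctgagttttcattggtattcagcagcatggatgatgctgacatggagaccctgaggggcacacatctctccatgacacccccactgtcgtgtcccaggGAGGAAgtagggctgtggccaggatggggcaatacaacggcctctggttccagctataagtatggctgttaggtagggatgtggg
Ltf (chr9:111019042-111019291, plus strand): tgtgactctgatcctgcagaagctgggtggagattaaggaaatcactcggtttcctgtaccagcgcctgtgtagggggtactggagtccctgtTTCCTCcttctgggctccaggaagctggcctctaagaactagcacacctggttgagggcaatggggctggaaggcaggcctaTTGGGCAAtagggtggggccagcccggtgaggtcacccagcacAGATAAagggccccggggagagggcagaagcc
S100a8 (chr3:90668821-90669070, plus strand): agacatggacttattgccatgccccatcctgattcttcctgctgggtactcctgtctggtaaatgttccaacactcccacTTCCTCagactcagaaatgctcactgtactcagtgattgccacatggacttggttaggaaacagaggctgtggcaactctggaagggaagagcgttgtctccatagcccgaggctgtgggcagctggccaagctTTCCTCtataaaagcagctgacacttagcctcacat
Alas2 (chrX:150547167-150547416, plus strand): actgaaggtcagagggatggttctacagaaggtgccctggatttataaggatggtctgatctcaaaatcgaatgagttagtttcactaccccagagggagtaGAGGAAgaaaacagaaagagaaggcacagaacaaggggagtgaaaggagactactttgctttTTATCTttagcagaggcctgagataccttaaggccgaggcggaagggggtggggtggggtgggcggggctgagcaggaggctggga

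The Elane window held 1 GAGGAA, 85 to 80 bases before the start, and that of S100a8 held 2 in the reverse orientation. The Ltf window held a match to each of the 3 motifs, and that of Alas2 a GATA match from 86 to 81 bases before the start and a GAGGAA further upstream. No match overlapped another in these 4 windows. GAGGAA occurred in 10 of the 15 neutrophil members with an entry, 6 of 10 monocyte and macrophage members, 0 of 4 dendritic cell members and 1 of 4 erythroid and platelet members, against 23.3% of all 32851 promoters. TTNNGCAA occurred in 6 of the 15 neutrophil members (Lcn2, Ltf, Mmp8, Ngp, S100a9 and Retnlg), against 9.56% of all promoters. It also occurred in 2 of 10 monocyte and macrophage, 1 of 4 dendritic cell and 1 of 4 erythroid and platelet members. AGATAA occurred in 2 of the 4 erythroid and platelet members, Alas2 and Kel, and in 3 of the 15 neutrophil members, against 9.99%. It was also found in 1 of 10 monocyte and macrophage and 1 of 4 dendritic cell members. Members were counted per gene, with a match in any entry of the gene, whereas the shares over all promoters are per entry. These matches are letters in a window and were not tested as binding sites. Cd86, Adgre1, Csf1r, Mmp9, Cd74, Fn1, Cldn13, Trf, Slc4a1, Cd14 and Tyrobp had no entry.

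All values are log2 signals after quantile normalization, so a difference of 1 is a 2-fold difference, and the median of every array was 7.45 and its lower quartile 5.81. Of the 44 members, 21 lay above the median on all 12 arrays, and 4 fell below the lower quartile on at least 1 array: Chil3, Fcgr4, Kel and Cldn13. The mean of 12 CD4 T cell genes differed between the array marked Rep and the unmarked array by -0.16 to 0.09 over the 6 groups, although single genes differed by more. Il7r, the interleukin-7 receptor gene, differed by 0.29 at 6 h and -0.26 at 24 h in transgenic cells and by 1.16 and -0.83 in WT cells, and Thy1 by -0.54 and -0.66 at 24 h in transgenic and WT cells. Cd4 read 12.98 to 13.75 and Cd3e 13.57 to 13.95 over all 12 arrays. The transgene could be read too, since Ppp2ca stood 0.57 ± 0.05 (log2 difference ± SE) higher in transgenic than in WT cells over the 3 times (limma, adjusted p = 0.0044).

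The 3 WT arrays marked Rep stood apart from the other 9. At 0, 6 and 24 h alike they held far less neutrophil and monocyte RNA than any other array, whereas the arrays marked Rep of transgenic cells did not. In WT cells, 29 of the 44 members were lower on the array marked Rep than on the unmarked array by more than 1 at all 3 times, against 154 of all 23410 probe sets (0.658%). In transgenic cells, 0 of the 44 were, against 3 probe sets (0.0128%). With a limit of 2, the WT count was 17 of 44, against 42 probe sets (0.179%). The members were chosen with this split in view, so these counts describe it. The map of all values by array shows the split as 3 blue columns across the neutrophil and monocyte genes, with no such columns in the rows of dendritic cell genes. What the labels record does not distinguish these 3 arrays from the others beyond the mark, and the part of RNA amount, hybridisation or cell sorting in the split was not tested.

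**Figure D1:**
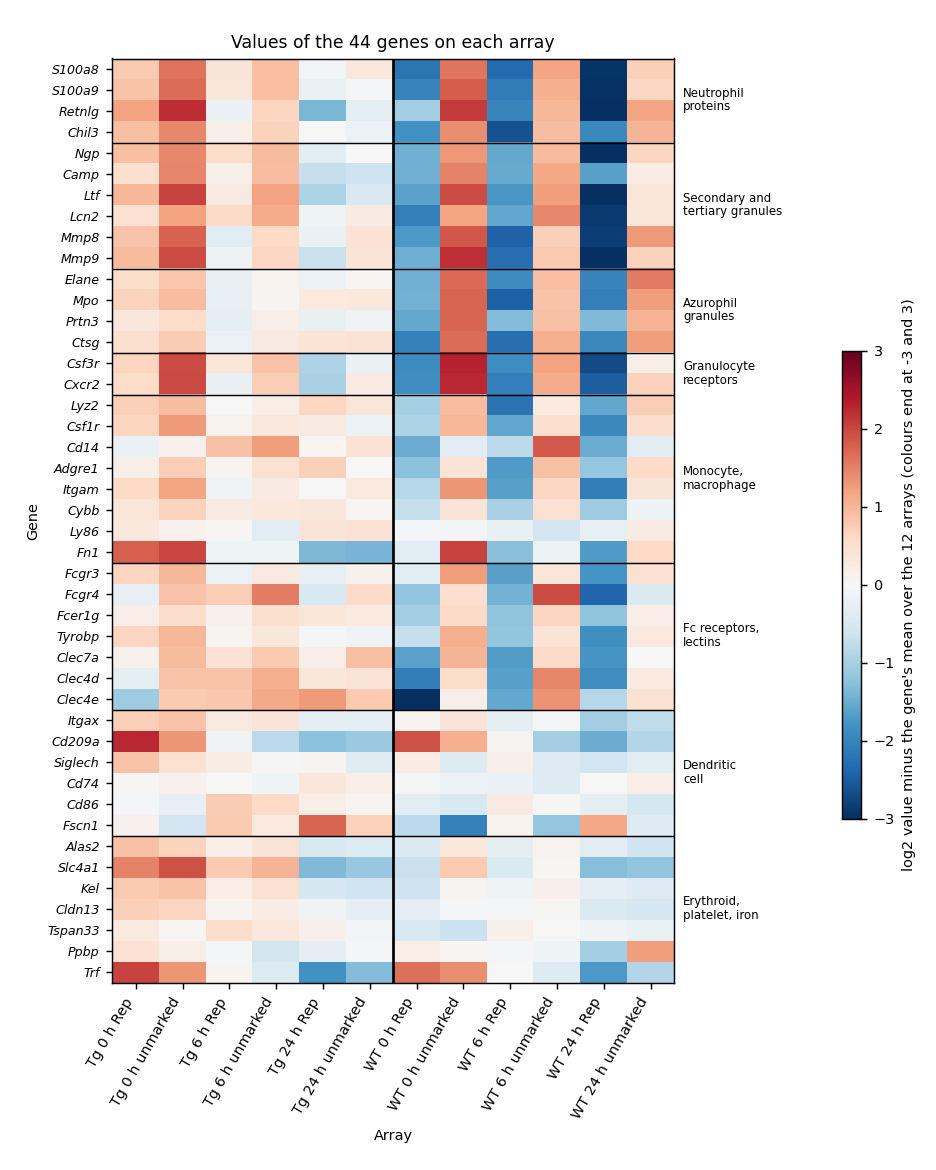
Values of the 44 genes (rows, grouped by role) on the 12 arrays (columns, transgenic left of WT, times from 0 to 24 h, the array marked Rep left of the unmarked one), coloured by the log2 value minus the mean of the gene over the 12 arrays. The 3 WT arrays marked Rep are low in all 16 neutrophil genes, and 35 of the 44 genes have their lowest value on 1 of those arrays.

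Neutrophil genes showed the split most strongly. S100a8, which encodes a subunit of calprotectin, read 12.02, 11.62 and 11.14 at 0, 6 and 24 h on the transgenic arrays marked Rep and 12.86, 12.12 and 11.54 on the unmarked ones. On WT arrays it read 9.03, 8.90 and 8.29 on the arrays marked Rep and 12.84, 12.42 and 11.94 on the unmarked ones. The 3 unmarked WT values thus lay at or near those of transgenic cells, and all 3 WT values marked Rep lay below every other array. Its partner S100a9 and the chitinase-like gene Chil3 also had their 3 lowest values there. The resistin family gene Retnlg did so but for 0 h, where 9.92 on the WT array marked Rep exceeded 9.60 on the transgenic array marked Rep at 24 h. The mean WT differences (Rep minus unmarked) over the 3 times were -3.66 for S100a8, -3.52 for S100a9, -3.59 for Retnlg and -3.24 for Chil3.

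The 6 genes of secondary and tertiary granules followed. Ltf, the lactoferrin gene, read 10.97, 10.24 and 9.03 on the transgenic arrays marked Rep and 11.99, 11.17 and 9.51 on the unmarked ones. On WT arrays it read 8.36, 8.23 and 6.64 on the arrays marked Rep, against 11.92, 11.23 and 10.34 on the unmarked ones. The values of WT arrays marked Rep lay below all others. Mmp8 (neutrophil collagenase), Mmp9 (gelatinase B), Lcn2 (an iron-scavenging lipocalin), Ngp (neutrophilic granule protein) and Camp (cathelicidin) had mean WT differences of -3.62, -3.49, -3.16, -3.11 and -2.48. In transgenic cells those of the same 5 genes ran from -0.95 for Mmp9 to -0.41 for Ngp.

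The receptors of the lineage, Csf3r for granulocyte colony-stimulating factor and Cxcr2 for CXC chemokines, had mean WT differences of -3.39 and -3.48. They also had larger transgenic differences than most, at -0.85 and -1.20. Over the 16 neutrophil genes the mean level differed between the arrays (Rep minus unmarked) by -0.76, -0.61 and -0.42 in transgenic cells at 0, 6 and 24 h. The WT differences were -3.45, -3.03 and -3.38.

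The azurophil granule genes combined the same split with lower transgenic values in the unmarked arrays. Elane, the gene of neutrophil elastase, read 11.03, 10.25 and 10.31 on the transgenic arrays marked Rep and 11.31, 10.59 and 10.54 on the unmarked ones. In WT cells it read 9.04, 8.59 and 8.47 on the arrays marked Rep and 12.17, 11.37 and 12.03 on the unmarked ones. Transgenic values thus lay between the 2 WT sets at every time. The same held for Mpo (myeloperoxidase), Prtn3 (proteinase 3) and Ctsg (cathepsin G), and also for S100a9, Camp, Mmp8, Mmp9, Csf3r and Cxcr2, so 10 of the 16 neutrophil genes had this order.

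Among unmarked arrays, the 4 azurophil genes were the only members that were lower in transgenic than in WT cells by more than 0.5 at all 3 times, against 12 of 23410 probe sets (0.0513%). The mean differences (transgenic minus WT) over the 3 times ran from -1.04 for Elane to -0.85 for Mpo. Those of the other 12 neutrophil genes ran from -0.56 for Retnlg to -0.15 for Lcn2. With 1 array per genotype and time in a set, these differences have no replicate check at a given time, and among arrays marked Rep all 4 were higher in transgenic cells, by 1.33 for Prtn3 to 2.31 for Ctsg.

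**Figure D2:**
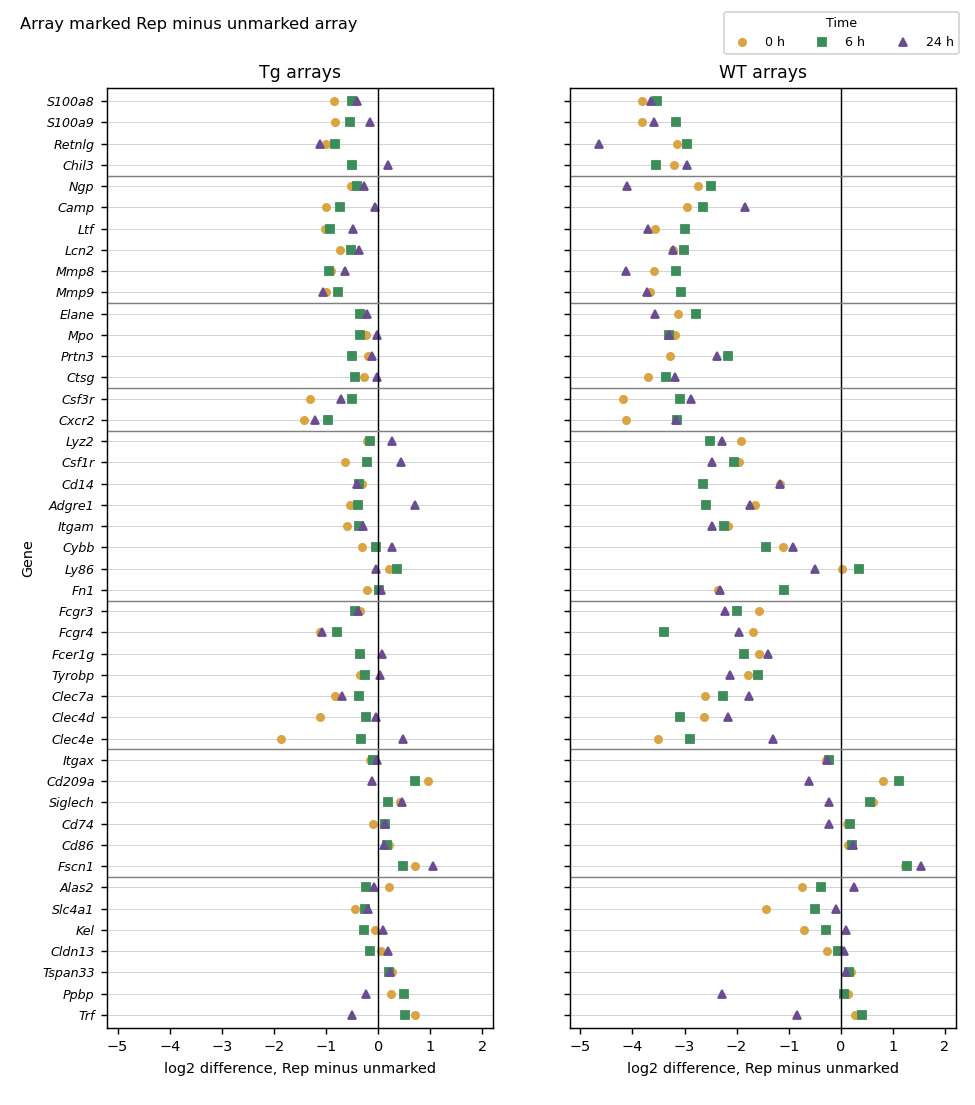
Log2 difference between the array marked Rep and the unmarked array (x axis) for each gene (y axis, grouped by role), in transgenic cells (left) and WT cells (right), with a point for each time. WT points of the 16 neutrophil genes lie between -4.65 and -1.84, and transgenic points of the same genes between -1.43 and 0.18.

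Monocyte and macrophage genes were split along the same arrays, less widely. Lyz2, the lysozyme gene of myeloid cells, read 13.63, 12.93 and 13.54 on the transgenic arrays marked Rep and 13.85, 13.08 and 13.27 on the unmarked ones. WT values were 11.93, 10.70 and 11.36 on the arrays marked Rep and 13.84, 13.21 and 13.65 on the unmarked ones. All 3 WT values marked Rep lay below the other 9. Csf1r, the receptor for macrophage colony-stimulating factor, Adgre1, a macrophage adhesion receptor, and Itgam, the alpha chain of an integrin of phagocytes, had mean WT differences of -2.16, -1.99 and -2.30 and transgenic ones of -0.14, -0.08 and -0.43. Cybb, a subunit of the phagocyte NADPH oxidase, had -1.15 in WT cells and did not reach the limit of 1 at every time, with -0.91 at 24 h.

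Cd14, a co-receptor for lipopolysaccharide, had a mean WT difference of -1.66, and Fn1, the fibronectin gene, -1.92. Ly86, whose product partners a Toll-like receptor relative that B cells also carry, was the exception. It read 12.02, 11.72 and 12.09 on the transgenic arrays marked Rep and 11.82, 11.35 and 12.13 on the unmarked ones. In WT cells it read 11.63, 11.46 and 11.44 on the arrays marked Rep and 11.61, 11.12 and 11.93 on the unmarked ones. Its WT arrays marked Rep were not set apart, and its mean WT difference was -0.04.

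All 7 genes of Fc receptors, C-type lectins and their adaptors were lower on the WT array marked Rep by more than 1 at all times. These are Fcgr3 and Fcgr4, which bind immunoglobulin G, the signalling adaptors Fcer1g and Tyrobp, and the receptors for fungal and bacterial glycans Clec7a, Clec4d and Clec4e. Their mean WT differences ran from -2.63 for Clec4d to -1.61 for Fcer1g, and the transgenic ones from -0.99 for Fcgr4 to -0.19 for Tyrobp. Over the 15 monocyte and macrophage genes together, the mean level differed (Rep minus unmarked) by -0.57, -0.26 and -0.04 in transgenic cells and by -1.84, -2.09 and -1.79 in WT cells.

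**Figure D3:**
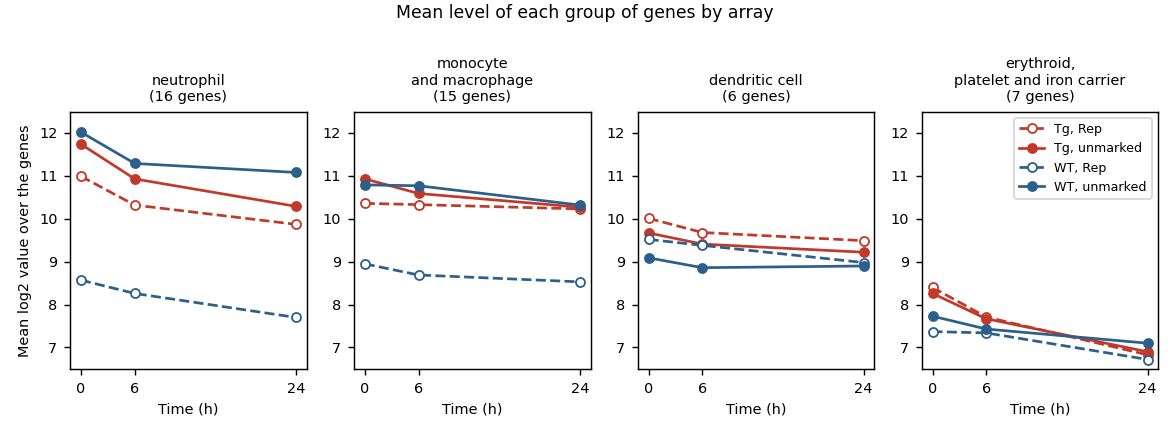
Mean log2 level over the genes of each group (y axis) at 0, 6 and 24 h (x axis), for transgenic cells (red) and WT cells (blue), on arrays marked Rep (open points, dashed) and unmarked arrays (filled points). Each point is 1 array: the WT arrays marked Rep lie at 8.57, 8.26 and 7.70 in the neutrophil panel, below the transgenic arrays marked Rep at 10.99, 10.32 and 9.87, and no such gap appears in the dendritic cell panel.

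Dendritic cell genes did not follow the split. Over the 6 of them, the mean level was 0.34, 0.26 and 0.27 higher on the transgenic arrays marked Rep than on the unmarked ones, and 0.44, 0.52 and 0.07 higher on the WT ones. Fscn1, which encodes the actin-bundling protein fascin of mature dendritic cells, went the other way from the myeloid genes. It read 10.96, 11.61 and 12.57 on the transgenic arrays marked Rep and 10.25, 11.13 and 11.52 on the unmarked ones. WT values were 10.03, 10.94 and 11.98 on the arrays marked Rep and 8.80, 9.67 and 10.45 on the unmarked ones. In both genotypes the array marked Rep was the higher at every time, and Fscn1 was 1 of only 2 probe sets of 23410 (0.00854%) that were higher by more than 1 on the WT array marked Rep at all times.

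None of the 7 erythroid, platelet and iron carrier members was lower by more than 1 on the WT array marked Rep at all times, against 0.658% of all probe sets. Their mean differed (Rep minus unmarked) by 0.14, 0.04 and -0.07 in transgenic cells and by -0.36, -0.09 and -0.39 in WT cells. At 0 h Slc4a1, Alas2, Kel and Cldn13 differed by -1.44, -0.75, -0.71 and -0.26 in WT cells. In transgenic cells they differed by -0.44, 0.21, -0.07 and 0.06. At 24 h the WT differences of these genes ran from -0.09 to 0.26. Trf, Tspan33 and Ppbp differed by 0.28, 0.20 and 0.13 in WT cells at 0 h. The adult globin transcripts, which are no members and were examined after their values were seen, did follow the split. The array holds 4 probe sets for them, 2 of the alpha and 2 of the beta chain, each matching several globin genes. A beta chain probe set read 12.36, 11.27 and 8.23 on the transgenic arrays marked Rep and 12.44, 11.68 and 8.78 on the unmarked ones. Its WT values were 9.52, 9.43 and 7.55 on the arrays marked Rep and 11.82, 10.76 and 9.38 on the unmarked ones. The WT array marked Rep was the lowest of its time in each case. Over the 4 probe sets the differences (Rep minus unmarked) ran from -0.56 to -0.08 in transgenic cells and from -2.36 to -1.33 in WT cells, so all 4 were lower by more than 1 on the WT array marked Rep at all times. The split thus took in these globin probe sets as well.

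Other blood cell lists were drawn up with earlier results known, and the adult globins are not counted in them. Of the measured genes in each list, those lower by more than 1 on the WT array marked Rep at all 3 times were 7 of 13 further neutrophil genes, 3 of 18 further monocyte and macrophage genes (Mpeg1, Sirpa and Spi1), 2 of 8 mast cell, basophil and eosinophil genes (Prss34 and Epx) and 1 of 13 further erythroid genes (Car1). The counts were 0 of 17 further dendritic cell genes, 0 of 7 platelet genes, 0 of 9 B cell genes, 0 of 8 NK cell genes, 0 of 2 CD8 T cell genes and 0 of 12 CD4 T cell genes. The share over all probe sets was 0.658%. At that share lists of this size would mostly hold none, so a count of 0 does not set a list apart.

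The brightest genes of these lists had mean WT differences of -3.60 for Ly6g, -1.76 for Il1b and -1.66 for Pglyrp1 among neutrophil genes, and of -0.19 for Ctss, -0.19 for Ms4a6c and 0.36 for Apoe among macrophage genes. They were -1.68 for Mcpt8, -2.14 for Prss34 and -0.95 for Cpa3 among basophil and mast cell genes. Against these, Ccr7, H2-Ab1 and H2-Aa of dendritic cells had 0.06, 0.05 and -0.04, and Cd79b, Cd79a and Ighm of B cells 0.22, 0.14 and -0.59. Eomes, Klrd1 and Gzma of NK cells had -0.15, -0.11 and 0.87, Cd8b1 and Cd8a -0.32 and -0.49, Itga2b, Treml1 and Tubb1 of platelets -0.29, -0.07 and -0.03, Tfrc, Car2 and Sptb of red cell precursors 0.43, -0.44 and -0.08, and Cd3g -0.03. Several of these genes are also expressed by T cells, among them Ccr7, Tfrc, Eomes and Klrd1.

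Seen across the genotypes, the medians of the neutrophil, monocyte, dendritic cell and erythroid members at 0 h were all higher in transgenic cells, but that of the neutrophil members was not among unmarked arrays. The fit of all 12 arrays called 0 of the 44 members at 0 h, 6 h or 24 h or averaged over the times (limma, Benjamini-Hochberg adjusted p under 0.05), against 0.00854% of all probe sets at each time and 0.0256% in the average (0.0214% higher and 0.00427% lower). At an unadjusted p under 0.05, 834, 610, 997 and 1484 of the 23410 probe sets passed in these comparisons. The genotype differences of the members were known when they were chosen and are given as a description. The median over the 16 neutrophil genes (transgenic minus WT) was 1.15, 0.92 and 0.73 at 0, 6 and 24 h, against -0.02, -0.01 and -0.01 over all probe sets. It was 2.47, 2.09 and 2.34 among arrays marked Rep, but -0.11, -0.32 and -0.83 among unmarked arrays.

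The 15 monocyte and macrophage genes had medians of 0.84, 0.67 and 0.84, which were 1.41, 1.65 and 1.88 among arrays marked Rep and 0.21, -0.17 and 0.10 among unmarked arrays. Without the 3 WT arrays marked Rep, the neutrophil medians were -0.54, -0.60 and -0.92 and the monocyte medians -0.19, -0.32 and 0.07. The higher transgenic values of these 2 groups therefore came with those 3 arrays. Leaving those arrays out sets both transgenic arrays against the unmarked WT array alone, which mixes mark and genotype. The medians among unmarked arrays do not mix them. Among arrays marked Rep, 31 of the 44 members were higher in transgenic cells by more than 0.5 at all times, against 1% of all probe sets. Among unmarked arrays 1 was, Fscn1, against 0.111%.

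**Figure D4:**
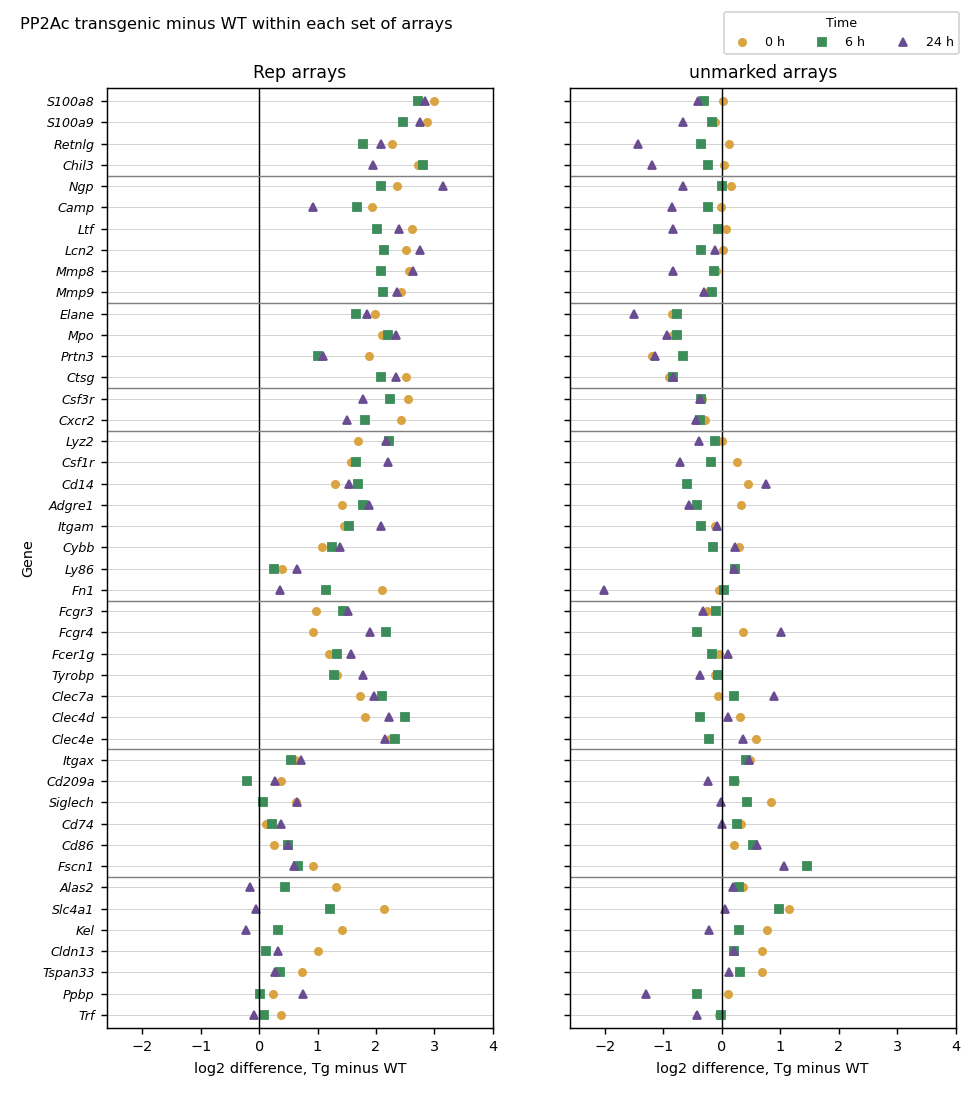
Log2 difference between transgenic and WT cells (x axis) for each gene (y axis, grouped by role), among arrays marked Rep (left) and among unmarked arrays (right), with a point for each time. Neutrophil genes lie between 0.92 and 3.14 among arrays marked Rep and between -1.50 and 0.15 among unmarked arrays, whereas Itgax, Cd86 and Fscn1 lie above 0 in both.

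Several dendritic cell genes had higher transgenic values whichever set of arrays was read, as did Ly86 of the monocyte list. The 17 further dendritic cell genes were mixed. Mean differences (unmarked arrays, then arrays marked Rep) were 0.33 and 0.47 for Flt3 and 0.29 and 0.29 for Tcf4. They were -0.12 and 0.23 for Xcr1, -0.16 and 0.52 for Clec10a and -0.00 and 0.04 for Zbtb46. Higher transgenic values in both sets were not particular to dendritic cell genes. Among B cell genes the mean differences were 0.36 and 0.57 for Ighm and 0.41 and 0.29 for Cd22. All measured B cell genes but Fcer2a (-0.58 and 0.01) and Cr2 (-0.36 and -0.03) had means above 0 in both sets. Itgax, an integrin alpha chain of dendritic cells, read 8.77, 8.34 and 7.76 on the transgenic arrays marked Rep and 8.92, 8.44 and 7.78 on the unmarked ones. WT arrays marked Rep read 8.14, 7.79 and 7.03 and unmarked ones 8.44, 8.02 and 7.31. Both transgenic arrays lay above both WT arrays at every time. Averaged over the times, the difference was 0.54 ± 0.08 (limma, adjusted p = 0.12), with an adjusted p of 0.010 when the mark Rep was a replicate block. That block takes the step from unmarked to Rep as equal in both genotypes, although for Fscn1 it was 1.34 in WT and 0.75 in transgenic cells. The labels do not say that arrays sharing a mark were paired. Genotype differences were known when the members were chosen, so the p-values with the block are a description.

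Cd86, which encodes a ligand of CD28, differed by 0.43 ± 0.07 (limma, adjusted p = 0.25, and 0.010 with the block), and Fscn1 by 1.02 ± 0.37 (0.77, and 0.045 with the block). Tspan33, a tetraspanin gene first described in erythroid precursors and also expressed by activated B cells, differed by 0.41 ± 0.08 (0.32, and 0.016 with the block). At 0 h Tspan33 differed by 0.71 ± 0.13 (limma, adjusted p = 1, and 0.045 with the block). It read 7.99 and 7.73 in transgenic cells there, above 7.25 and 7.05 in WT cells. Averaged over the times without the 3 WT arrays marked Rep, Itgax differed by 0.41, Cd86 by 0.53, Fscn1 by 1.69 and Tspan33 by 0.49. That fit has 1 WT array at each time, unmarked, against both transgenic arrays, so mark and genotype are mixed in it. Among unmarked arrays alone the mean differences were 0.46, 0.45, 1.32 and 0.37.

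Both transgenic arrays lay above both WT arrays at all 3 times for 5 of the 44 members, Itgax, Cd74, Cd86, Cldn13 and Tspan33, against 0.73% of all probe sets. Cd74, the invariant chain of class II antigen presentation, read 12.75 to 13.48 over all arrays, with 13.34 on both the lower transgenic and the higher WT array at 24 h when rounded, and an average difference of 0.21 ± 0.06. At single times the order held for 12 members at 0 h (12.8% of all probe sets), 10 at 6 h (11.1%) and 12 at 24 h (14.5%). The reverse order held for 0, 0 and 1 members (Kel), against 20.5%, 14.1% and 16.2%. Siglech, of plasmacytoid dendritic cells, read 8.10 and 7.69 in transgenic cells at 0 h and 7.47 and 6.85 in WT cells (0.73 ± 0.26), and 0.24 and 0.32 higher in transgenic cells at 6 and 24 h. Cd209a, a lectin gene of monocyte-derived dendritic cells, differed by 0.30 ± 0.46, 0.01 ± 0.46 and 0.02 ± 0.46.

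Erythroid genes were higher in transgenic cells before stimulation and differed little at 24 h. Slc4a1, the anion exchanger of the red cell membrane, read 10.17, 9.47 and 7.37 on the transgenic arrays marked Rep and 10.61, 9.72 and 7.55 on the unmarked ones. WT values of this gene were 8.03, 8.25 and 7.41 on the arrays marked Rep and 9.47, 8.74 and 7.51 on the unmarked ones. The genotypes did not overlap at 0 and 6 h and overlapped at 24 h. The differences were 1.65 ± 0.39, 1.09 ± 0.39 and 0.00 ± 0.39 (SE), none of them called.

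Alas2, the erythroid enzyme that starts haem synthesis, read 7.91 and 7.70 in transgenic cells at 0 h and 6.59 and 7.34 in WT cells. At 24 h it read 6.54 and 6.62 in transgenic cells and 6.69 and 6.43 in WT cells. Kel, the gene of the Kell blood group protein, and Cldn13, a claudin gene of mouse erythroid cells, differed by 1.10 ± 0.20 and 0.85 ± 0.11 at 0 h and by -0.23 ± 0.20 and 0.26 ± 0.11 at 24 h. Both are dim here, and Kel lay below the lower quartile of the arrays in every array at 24 h. Among 13 further erythroid genes, 9 had both transgenic arrays above both WT arrays at 0 h, including Rhd, Car2 and Aqp1, against 12.8% of all probe sets. Their median difference was 0.37 at 0 h, 0.17 at 6 h and -0.05 at 24 h.

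The other 2 members of this list did not follow the erythroid genes. Ppbp, the precursor of a platelet chemokine, read 7.93 and 8.17 in transgenic cells at 24 h and 7.18 and 9.47 in WT cells, so the unmarked WT array was the highest of all 12. Trf, the transferrin gene, differed between genotypes by 0.16 ± 0.34, 0.03 ± 0.34 and -0.26 ± 0.34 at the 3 times.

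Most members had lower values after stimulation than at 0 h. No array came from unstimulated cells at 6 or 24 h. Stimulation and time in culture therefore cannot be told apart in any difference from 0 h given here. In the fit of 6 group means, 5 of the 44 members were called in transgenic cells at 6 h (1 higher, 4 lower), against 25.4% of all probe sets, and 8 at 24 h (all lower), against 23.8%. In WT cells 4 were called at 6 h (2 higher, 2 lower), against 26.5%, and 4 at 24 h (all lower), against 26.7%. The genes called were Cd86 (higher), Itgax, Cd209a, Cldn13 and Trf in transgenic cells at 6 h, and Fn1, Itgax, Cd209a, Alas2, Slc4a1, Kel, Cldn13 and Trf at 24 h. In WT cells they were Cd86 and Tspan33 (higher), Cd209a and Trf at 6 h, and Itgax, Cd209a, Slc4a1 and Trf at 24 h. The members' shares in either direction were below the background. Called lower alone were 12.9% and 11.8% of all probe sets in transgenic cells at 6 and 24 h, and 13.9% and 13.8% in WT cells. Against these, only the 8 of 44 members lower in transgenic cells at 24 h were a larger share. The spread in that fit includes the gap between the 2 WT sets. S100a8, for example, had an SE of 1.51 for every difference.

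A fit with each combination of genotype and mark as a block of 3 times, chosen after the data had been seen, compares each array with the 0 h array of its own set. It called 25 members in transgenic cells at 6 h (4 higher, 21 lower, background 29.1%) and 29 at 24 h (2 higher, 27 lower, 27.8%). In WT cells it called 18 at 6 h (5 higher, 13 lower, 29.7%) and 24 at 24 h (2 higher, 22 lower, 30.5%). The labels do not say whether arrays with the same mark share mice or cultures, and the spread within a set may be technical. Since the fit was chosen with the data in view, its p-values are a description.

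The mean level of the neutrophil genes was lower at 24 h than at 0 h in all 4 sets. The difference was -1.12 on the transgenic arrays marked Rep and -1.45 on the unmarked ones, and -0.87 and -0.94 on the WT ones. In the fit with 4 blocks, 14 of the 16 fell in transgenic cells at 24 h, against 14.3% of all probe sets, and 11 of the 16 in WT cells, against 16.2%. Ltf fell by 2.21 ± 0.18 in transgenic cells and by 1.65 ± 0.18 in WT cells (limma, adjusted p = 0.00030 and 0.00055). Retnlg fell by 2.53 ± 0.34 and by 1.66 ± 0.34 (adjusted p = 0.0015 and 0.0079), and Csf3r by 1.87 ± 0.30 and by 1.47 ± 0.30 (adjusted p = 0.0031 and 0.0077).

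The azurophil genes had smaller differences at 24 h than these 3. Mpo fell by 0.49 ± 0.10 in transgenic and by 0.55 ± 0.10 in WT cells at 24 h (limma with 4 blocks, adjusted p = 0.0075 and 0.0037). Elane fell by 0.74 ± 0.16 in transgenic cells (adjusted p = 0.011), while Prtn3 and Ctsg were not called at 24 h in either genotype, nor was Elane in WT cells (-0.35 ± 0.16). At 6 h, 11 of the 16 neutrophil genes fell in transgenic cells, against 15.3% of all probe sets, and 5 of the 16 in WT cells, against 16%, and Lcn2 rose in WT cells by 0.38 ± 0.11 (adjusted p = 0.035).

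**Figure D5:**
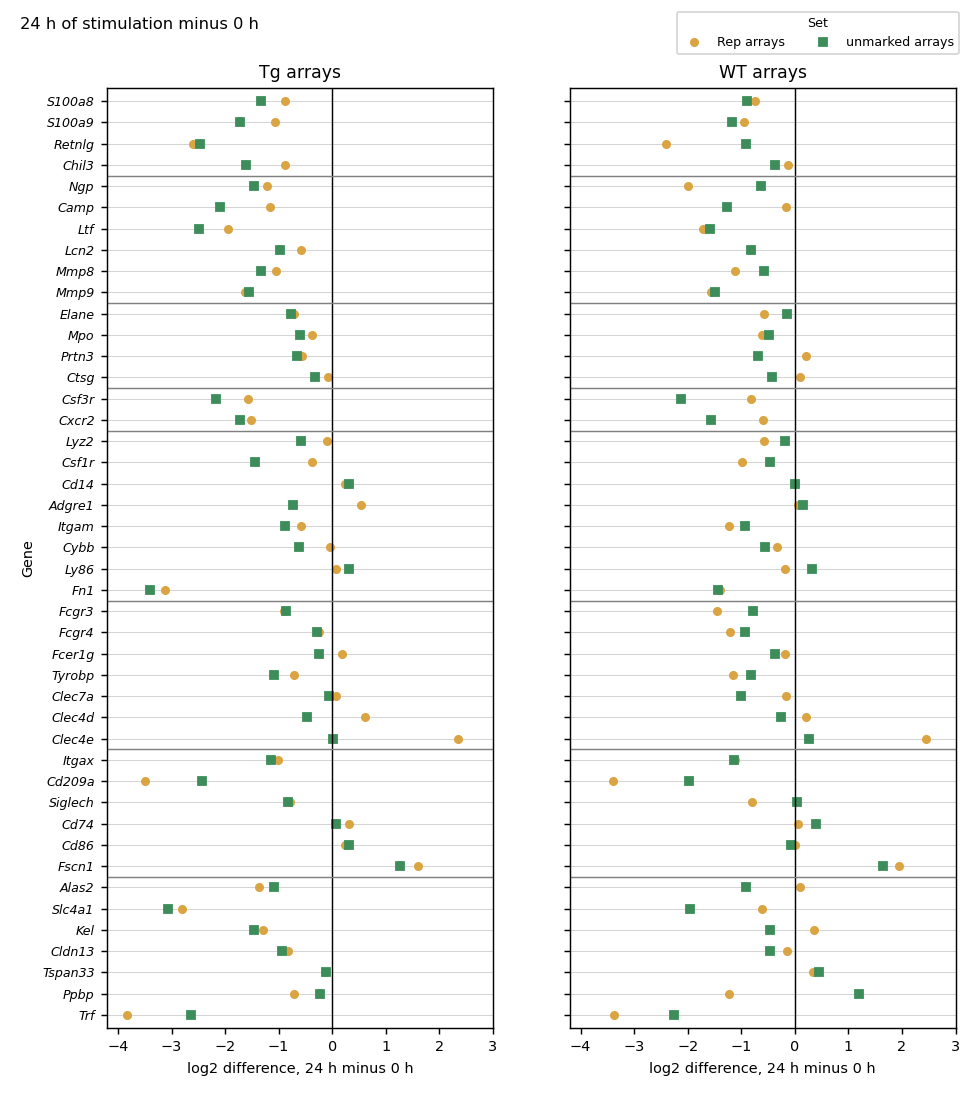
Log2 difference between 24 h of stimulation and 0 h (x axis) for each gene (y axis, grouped by role), in transgenic cells (left) and WT cells (right), with a point for the arrays marked Rep and a point for the unmarked arrays. All 16 neutrophil genes lie below 0 in both transgenic sets, Fscn1 lies above 0 in all 4 sets, and Trf and Cd209a lie among the lowest in all 4.

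Monocyte and macrophage genes had mixed responses. In the fit with 4 blocks, 5 of the 15 fell in transgenic cells at 24 h, against 14.3% of all probe sets, and 7 of the 15 in WT cells, against 16.2%. None of the 15 rose at 24 h, against 13.6% in transgenic and 14.3% in WT cells. Fn1 read 10.31, 8.40 and 7.18 on the transgenic arrays marked Rep and 10.53, 8.39 and 7.13 on the unmarked ones. WT values were 8.21, 7.26 and 6.82 on the arrays marked Rep and 10.56, 8.36 and 9.13 on the unmarked ones. The unmarked WT array at 24 h stood above the other 3 arrays of that time.

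Fn1 fell by 3.27 ± 0.82 in transgenic cells at 24 h in the fit of group means (limma, adjusted p = 0.019) and by 3.27 ± 0.27 with 4 blocks (adjusted p = 0.00030). In WT cells it differed by -1.41 ± 0.82 (adjusted p = 0.26) and fell by 1.41 ± 0.27 with 4 blocks (adjusted p = 0.0057). When the 3 WT arrays marked Rep were left out, the genotype difference of Fn1 at 24 h was -1.98 (limma, adjusted p = 0.010). That comparison has 1 WT array, which is assumed to vary like the transgenic groups and is the one that stood above the other 3, so it does not bear on the genotypes.

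Cd14 was higher at 6 h than at 0 or 24 h within each of the 4 sets, at 9.19 and 9.55 in transgenic cells and 7.51 and 10.15 in WT cells. It rose by 1.10 ± 0.32 in transgenic cells and by 1.43 ± 0.32 in WT cells over 0 h (limma with 4 blocks, adjusted p = 0.033 and 0.010), and at 24 h it was not called. Clec4e, also known as Mincle, read 2.35 higher at 24 h than at 0 h on the transgenic arrays marked Rep but 0.01 higher on the unmarked ones. In WT cells these differences were 2.45 and 0.26, so its response went with the mark in both genotypes, and it was not called.

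Among dendritic cell genes, Cd209a and Itgax fell and Cd86 and Fscn1 rose. Cd209a read 10.00, 7.62 and 6.51 on the transgenic arrays marked Rep and 9.05, 6.91 and 6.62 on the unmarked ones. The WT values were 9.63, 7.82 and 6.23 on the arrays marked Rep and 8.82, 6.70 and 6.85 on the unmarked ones. Every array of a stimulated time lay below all 4 arrays of 0 h. In the fit of group means it fell by 2.96 ± 0.46 in transgenic cells and by 2.68 ± 0.46 in WT cells at 24 h (limma, adjusted p = 0.0019 and 0.0024).

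Itgax fell by 1.08 ± 0.13 and by 1.12 ± 0.13 at 24 h (limma, adjusted p = 0.00072 and 0.00043). Cd86 rose by 0.82 ± 0.12 in transgenic cells and by 0.53 ± 0.12 in WT cells at 6 h (limma, adjusted p = 0.0012 and 0.012). When the 3 WT arrays marked Rep were left out, the WT change of Cd86 was 0.49 and was not called (limma, adjusted p = 0.088). Fscn1 rose by 1.44 ± 0.14 in transgenic and 1.80 ± 0.14 in WT cells at 24 h with 4 blocks (adjusted p = 0.00046 and 0.00019). In the fit of group means it was not called (adjusted p = 0.15 and 0.068).

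Of the erythroid genes Alas2, Slc4a1, Kel and Cldn13, all 4 fell by 24 h in transgenic cells and 1, Slc4a1, in WT cells. Of all probe sets, 11.8% were called lower in transgenic cells and 13.8% in WT cells. The 0 h values of the 4 genes were higher in transgenic cells. Cldn13 read 5.15 to 5.68 on the WT arrays, below the lower quartile of 5.81. Kel read 5.42 and 6.13 in WT cells at 0 h, so a further fall of these 2 genes could hardly be read there. At 24 h Slc4a1 fell by 2.93 ± 0.39 in transgenic cells and by 1.29 ± 0.39 in WT cells (limma, adjusted p = 0.00092 and 0.035). Alas2 fell by 1.22 ± 0.23, Kel by 1.38 ± 0.20 and Cldn13 by 0.88 ± 0.11 in transgenic cells (limma, adjusted p = 0.0049, 0.0016 and 0.00070), and none of the 3 was called in WT cells. The difference between the genotypes in the response at 24 h was -1.65 ± 0.55 for Slc4a1, -1.32 ± 0.29 for Kel, -0.82 ± 0.33 for Alas2 and -0.58 ± 0.15 for Cldn13. None of these differences was called (limma, 0 of 44 members and 0 of 23410 probe sets at 6 h and at 24 h, with 420 and 625 at an unadjusted p under 0.05, and 0 of all probe sets with 4 blocks).

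Tspan33 rose in WT cells at 6 h by 0.64 ± 0.13 (limma, adjusted p = 0.0058). Its change was 0.67 and not called (limma, adjusted p = 0.060) when the WT set marked Rep was left out. Trf had the strongest fall of this list. It read 10.90, 8.96 and 7.06 on the transgenic arrays marked Rep and 10.20, 8.45 and 7.56 on the unmarked ones. WT values were 10.53, 8.88 and 7.15 on the arrays marked Rep and 10.25, 8.47 and 7.99 on the unmarked ones. The genotypes overlapped at each time, and at 24 h Trf fell by 3.24 ± 0.34 in transgenic cells and by 2.82 ± 0.34 in WT cells (limma, adjusted p = 0.00035 and 0.00042).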

How the data were processed

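RNA from 12 samples was measured on one-colour arrays, 2 per group of genotype and time. The deposited table holds log2 values per probe set, 28853 in all, as the authors processed them. Neither their summarisation nor their normalisation method is given in the sources used here. Array medians ran from 7.39 to 7.50, a range above the limit of 0.1, so the values were quantile normalised. Genes were named from the array annotation: 21789 probe sets had 1 symbol, 1621 several and 5443 none, and 91 Entrez numbers were not found in the RefSeq table. The 23410 with a symbol were tested with limma 3.58.1 in R 4.3.3 (6 group means, 6 residual and 3.05 prior degrees of freedom, 10 comparisons, Benjamini-Hochberg adjusted p under 0.05 within each), after a check on simulated data. Tables and plots used Python 3.11.15.

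The members and all gene lists were chosen with earlier results of these data known. All members were to be named, and of the other lists the 3 genes of the highest mean, any gene called between genotypes (there was none), Cd3e, Cd4, Cd8a and Ppp2ca; other genes were named after their values were seen. Of 128 genes in the other lists, 107 were measured. The mark Rep was checked as a pairing: deviations from the group means correlated between all 15 pairs of groups (r from 0.138 to 0.591), so the mark was tried as a block. Other settings tried were median centring, the deposited values, other filters and moderation, array weights, fits of the compared groups alone, and leaving out arrays. The fit with genotype and mark as 4 blocks was added after the data were seen.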

Additional observations from a re-analysis of the deposited data

How the results depend on the processing

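The 0 calls in the difference of response held under every alternative run. Values as deposited, median centring, the filter on dim probe sets, all rows of the table, trended and robust moderation and array weights left every count within 1.5 times its main value and moved every group median by less than the spread between arrays. With the mark Rep as a replicate block the counts of members called were 1 at 0 h (transgenic minus WT), 4 in the average and 8 in transgenic cells at 6 h, and the block moved no other count by over 1.5 times. Fits of the compared groups alone called 18 and 22 members in transgenic cells at 6 h and 24 h. Genotype and mark as 4 blocks gave 25, 29, 18 and 24, against 29.1%, 27.8%, 29.7% and 30.5% of all probe sets. No such share is given for the counts under the other settings, so they describe the settings and not the members. Without the 3 WT arrays marked Rep the counts were 18, 25 and 8 (transgenic 6 h, transgenic 24 h, WT 24 h), and 1 between genotypes at 24 h (Fn1, against 1 WT array assumed to vary like the transgenic groups). Leaving out 1 array at a time gave 3 to 8 called in transgenic cells at 6 h (3 without the transgenic array marked Rep at 0 h or at 6 h, 8 without either WT array at 0 h) and 0 to 1 in the genotype average, where the 1 was Slc4a1 without the unmarked WT array at 0 h. It gave neutrophil medians (transgenic minus WT) of -0.54 to 2.90, -0.60 to 2.39 and -0.92 to 2.49 at 0, 6 and 24 h, monocyte medians of -0.19 to 1.69 and -0.32 to 1.76 at 0 and 6 h, dendritic cell medians of 0.28 to 0.55 and 0.21 to 0.56 at 6 and 24 h, and erythroid, platelet and iron carrier medians of -0.093 to 0.15 at 24 h. The neutrophil medians were below 0 only without the WT array marked Rep of that time, where both transgenic arrays were set against the unmarked WT array alone. Within the unmarked arrays the neutrophil medians were -0.11, -0.32 and -0.83 and the monocyte median at 6 h was -0.17. Without the 3 WT arrays marked Rep the neutrophil medians were -0.54, -0.60 and -0.92 and the monocyte medians at 0 and 6 h -0.19 and -0.32. Dendritic cell medians were 0.43 (unmarked) and 0.55 (without those 3 arrays) at 6 h, and 0.24 (unmarked), 0.54 (marked Rep) and 0.33 (without them) at 24 h. Erythroid, platelet and iron carrier medians were 0.68 (unmarked) and 1.01 (marked Rep) at 0 h, and -0.046 at 24 h both among arrays marked Rep and without the 3 WT arrays. The cause was not tested. The median over all probe sets of a gene gives the same values, since each member has 1.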

Other observations

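The probe sets that were lowest on the WT arrays marked Rep extended beyond the members, and the genes in this paragraph were named after their values were seen. Ranked by the mean WT difference between the array marked Rep and the unmarked array, 6 of the lowest 10 probe sets, 13 of the lowest 20, 18 of the lowest 50 and 27 of the lowest 100 were members. Members were 44 of all 23410 probe sets. They were chosen with this split in view, so these counts describe the choice and are no support for it. The lowest of all was Slfn4, a Schlafen gene of myeloid cells, with differences (Rep minus unmarked) of -1.88, -1.22 and -1.57 at 0, 6 and 24 h in transgenic cells and of -3.38, -4.96 and -2.97 in WT cells. Il1f9, a cytokine gene of the interleukin-1 family, had WT differences of -4.35, -3.40 and -2.71, and Trem3, a receptor gene of myeloid cells, -3.72, -3.13 and -2.89. Those of Cd33, a sialic acid receptor gene, were -3.15, -2.78 and -2.92, and those of Slc40a1, the gene of the iron exporter ferroportin, -3.68, -2.89 and -2.58. These values describe the arrays and were not tested.

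Some NK cell genes differed between genotypes within the unmarked arrays. Of 8 measured, 4 (Ncr1, Klrk1, Gzma and Klra8) were higher in transgenic than in WT cells by more than 0.5 at all 3 times in that set, against 26 of 23410 probe sets (0.111%). Their mean differences there were 1.02, 0.78, 1.43 and 1.06, but 0.42, 0.23, 0.30 and 0.59 among arrays marked Rep. Klrb1c differed by 0.66 and -0.22. With 1 array per genotype and time in a set, these differences have no replicate check at a given time. The platelet gene Pf4 read 7.27 and 7.81 in transgenic cells at 24 h and 6.81 and 8.78 in WT cells, so the unmarked WT array was the highest, as it was for Ppbp. C1qb and Mrc1 of macrophages were also highest on that array, at 8.78 and 6.80. Ciart, a gene of the circadian clock, was the only probe set other than Fscn1 that was higher on the WT array marked Rep by more than 1 at all times (1.08, 1.39 and 2.24), and it read 0.48, 1.30 and 1.36 higher on the transgenic arrays marked Rep.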
